A study of Mus musculus with 6 samples.

Results

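Families of membrane carriers that move amino acids and related small molecules, Slc1a, Slc3a, Slc6a, Slc7a, Slc36a, Slc38a and Slc43a, were followed in fetal mouse livers that lack or keep the nuclear receptor HNF4 alpha. All probe sets with a single gene symbol of these families were taken, apart from Slc1a2 and Slc38a4, which the rule leaves out. They numbered 114 probe sets for 58 genes, of 45037 probe sets and 18193 genes measured. The rule itself reads gene names only. Symbols of opposite-strand transcripts (Slc36a1os, Slc6a19os and Slc7a6os) were not counted as members.

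Whole livers were taken at E18.5, shortly before birth, and each of 3 control and 3 null livers was read on 1 array. The controls carry one loxP-flanked and one unflanked Hnf4 allele with the AlfpCre transgene, and the nulls carry 2 flanked alleles with the same transgene, so that Cre is present in both groups and the controls are themselves heterozygous for the flanked allele. AlfpCre drives Cre from albumin and alpha-fetoprotein regulatory elements, which directs deletion to the hepatocyte lineage. The fetal liver also holds blood-forming, endothelial, mesenchymal and macrophage cells, in which that transgene is not meant to act. The comparison asks which transcripts differ when HNF4 alpha is removed from the hepatocyte lineage.

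Amino acids cross membranes through carriers with overlapping cargo, and the liver uses them to take up amino acids for protein synthesis, gluconeogenesis and urea synthesis and to release others. Some carriers couple transport to the sodium gradient (Slc1a, Slc6a and much of Slc38a), some exchange one amino acid for another (much of Slc7a), and some are driven by protons (Slc36a). Several Slc7a light chains reach the cell surface only when joined to a heavy chain, Slc3a1 or Slc3a2. HNF4 alpha binds promoters and enhancers of many hepatocyte genes.

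Intensities are given as deposited, as means ± SD over 3 arrays where marked with ±. A log2 change is null minus control after 32 was added to each intensity, which understates the change of dim genes. A gene passed the test at a limma adjusted p under 0.05 over all 45037 probe sets, and a gene with several probe sets was represented by the brightest. Folds are that log2 change put back on a linear scale, with the 32 included, and so are not ratios of the printed means. They are left out if either group averaged under 99.5, the highest of the 6 array medians, and such signals are called dim. Array intensities of different probe sets were not set against each other as levels of RNA. Sums over cell markers, given below, compare arrays only, and the brightest markers weigh most in them.

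The libraries were read for their labels first. Hnf4a, the targeted gene, was measured by 4 probe sets. The brightest, 1427001_s_at, read 2607, 2817 and 2877 in Control_8, Control_1192 and Control_1193 and 1778, 1562 and 2778 in Null_61, Null_1191 and Null_1195, with an overlap of the groups through Null_1195 (adjusted p = 0.194). The other 3 probe sets lay lower in every null array, by 0.54 to 0.69 on the log2 scale, and 1421983_s_at (adjusted p = 0.0434) and 1450447_at (adjusted p = 0.0488) passed. Each of these 2 calls was lost when any 1 control array or Null_1191 was left out, with adjusted p from 0.0694 to 0.169. The sources used here do not say which of these probes lie in the deleted part, so the remaining signal does not measure how complete the deletion was.

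Array medians lay between 91.8 and 99.5. Control_8 and Null_61, whose title numbers stand apart from those of the other arrays, also differed from the other 4 in a ribosomal RNA control probe set (42.1 and 33.5 against 449 to 616) and along a second principal component with 22.4% of the variance. Each such set holds 1 or 2 arrays of each group, so changes are also given within them. The labels give no embryo sex, so it was inferred from the signals of Xist and Y-linked probe sets. Sex inferred in this way goes with genotype inside each set. Control_8 is female and Null_61 male, while Control_1192 and Control_1193 are male and Null_1191 and Null_1195 female. Within a set, genotype and sex therefore cannot be told apart. Hepatocyte markers were bright in every array. In the null livers 5 of 7 measured hepatocyte markers fell (Apoa1, Apoh, Fgb, Ttr and Ahsg, by 0.36 to 1.94 on the log2 scale), against 7.85% of all genes. No change passed for Alb (log2 change 0.02) or Afp (log2 change -0.06). Afp gave the highest intensity of Null_1191 (11534) and Null_1195 (11302), as Ahsg did of Control_8 (12480) and Control_1193 (12565), and Alb read 10165 to 11079 in the null livers. Readings so near the top of the scale may not show a change in RNA. The calls of Ttr and Ahsg were lost without any 1 control array (adjusted p from 0.0574 to 0.0841), and that of Ahsg also without Null_1191 (0.0694). In bulk tissue, fewer cells of a type and less RNA per cell cannot be told apart.

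Of the 58 transporter genes, 7 fell, 2 rose and 49 did not pass. Over all genes, 7.85% fell and 1.56% rose, 9.40% either way, against 15.5% of the transporters. Over probe sets, 10 of the 114 fell and 2 rose, against 2171 and 496 of the 34945 probe sets with a single symbol. Over all 45037 probe sets, with or without a symbol, 5.55% fell and 1.46% rose. The share of transporter genes whose groups did not overlap, 18 of 58, was 31.0%, as over all genes (31.0%). The median log2 change was 0.04 among transporters and 0.01 over all genes, and the changes ran from -3.29 (Slc38a3) to 0.73 (Slc6a8). Falls made up 83.5% of the calls over all genes, and 66.0% after quantile normalization, under which 6 transporter genes fell and 3 rose. By signal, 35 members had a mean above the highest array median, and 6 of these fell and 2 rose. Of all 12249 genes that bright, 1471 passed (12.0%). Among the other 23 members 1 fell. Bright and dim genes together, 1711 of 18193 passed. The calls fell in the families as follows: 1 of 8 Slc38a genes, 1 of 2 Slc3a genes, 3 of 15 Slc7a genes (2 lower and 1 higher) and 4 of 20 Slc6a genes (3 lower and 1 higher). No Slc1a, Slc36a or Slc43a gene passed through its brightest probe set in limma's test, and 2 of those 13 genes had an unadjusted p under 0.05, as did 24.3% of all genes.

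**Figure D1:**
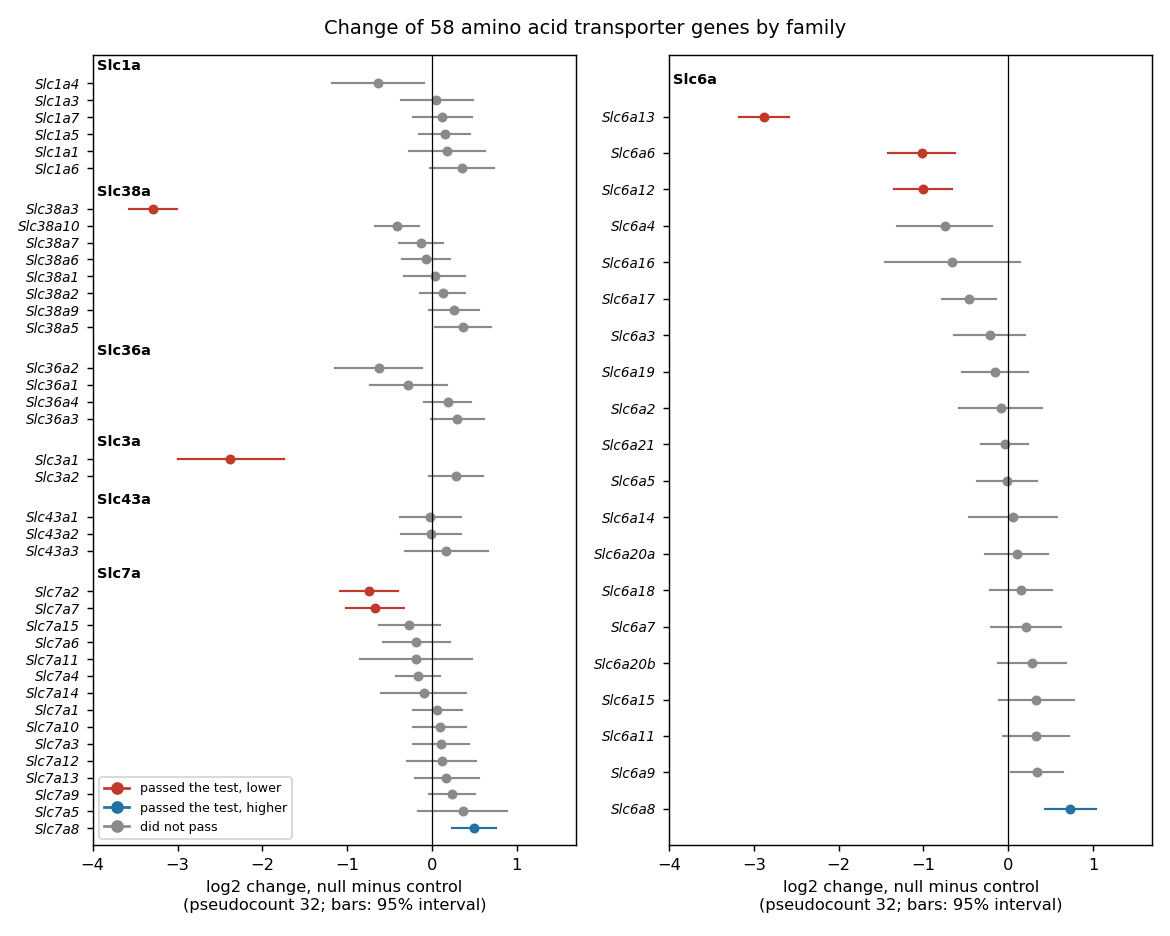
Log2 change (null minus control, pseudocount 32) of the 58 transporter genes by family, with 95% intervals of the limma fit as bars. Red genes passed lower, blue genes passed higher and grey genes did not pass, and the grey points lie between -0.75 and 0.37.

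**Figure D2:**
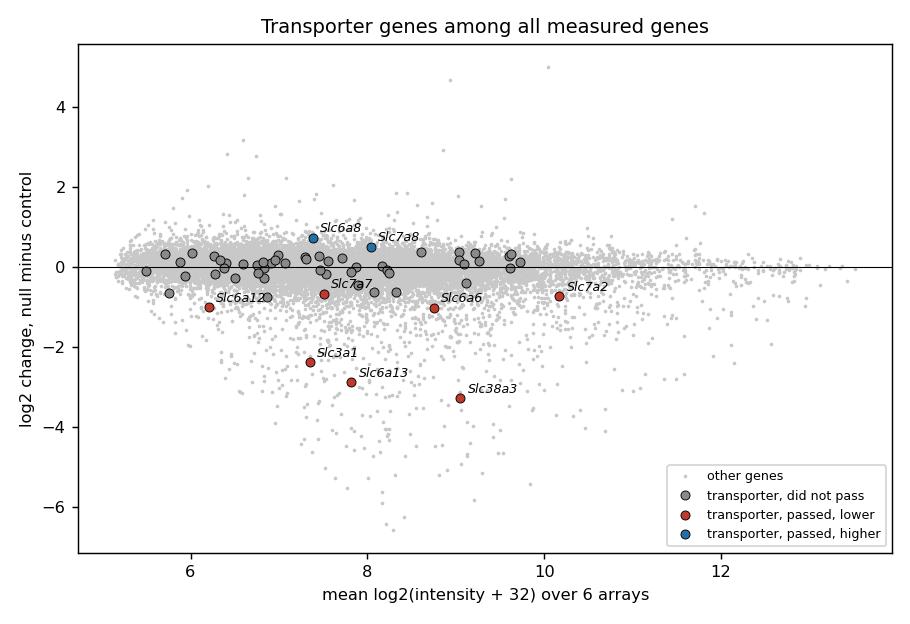
Log2 change against mean log2(intensity + 32) over the 6 arrays for all 18193 genes in grey, with the transporter genes on top in red (passed, lower), blue (passed, higher) and dark grey (did not pass). Slc38a3, Slc6a13 and Slc3a1 lie below the bulk of genes of similar brightness.

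The promoters of 2 genes that fell to near background are shown first, because they let a reader see what sequence lies at their start sites. The RefSeq table of promoter windows (assembly GRCm38.p6, 250 bases before to 50 after a start) held 60 windows for 41 of the 58 members. Each window was searched on both strands for 3 HNF4-type motifs, CAAAGTCCA, CAAAGTTCA and CAAAGGTCA, which share their first 5 bases. At least one of them lay in 437 of 32851 windows of all genes, 1.33%, and in 1 of the 60 member windows. That window is Slc3a1's, at chr17:85028097-85028396 on the plus strand, where CAAAGTCCA (in capitals) begins 39 bases before the start. CAAAGTCCA itself lay in 0.475% of all windows. The first of 3 windows of Slc6a13, at chr6:121300038-121300337 on the plus strand, has none of the motifs and is printed without capitals.
Slc3a1 promoter: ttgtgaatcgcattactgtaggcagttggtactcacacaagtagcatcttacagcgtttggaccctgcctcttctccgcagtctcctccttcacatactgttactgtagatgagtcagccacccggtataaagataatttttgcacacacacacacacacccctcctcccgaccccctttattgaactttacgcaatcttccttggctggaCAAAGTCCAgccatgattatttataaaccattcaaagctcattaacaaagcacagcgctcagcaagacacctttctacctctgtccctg
Slc6a13 promoter: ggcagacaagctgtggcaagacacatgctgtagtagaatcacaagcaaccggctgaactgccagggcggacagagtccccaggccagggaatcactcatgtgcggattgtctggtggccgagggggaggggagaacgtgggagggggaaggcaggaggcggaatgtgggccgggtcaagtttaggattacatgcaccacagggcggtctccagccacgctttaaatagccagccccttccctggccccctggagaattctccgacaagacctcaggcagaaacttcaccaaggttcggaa
A match is a description of the letters in the window, and no match says only that these letters are not in it. Of the genes that fell, Slc6a12 and Slc7a7 also had windows in the table, with no motif.

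Slc38a3 had the largest change of any member. It encodes SNAT3, a sodium-coupled carrier of glutamine, histidine and asparagine that hepatocytes use to take up and release glutamine. Its probe set 1418706_at read 1764, 1660 and 1458 in Control_8, Control_1192 and Control_1193 and 122, 142 and 149 in Null_61, Null_1191 and Null_1195. Every null array lay below every control array by a wide margin. The means were 1627 ± 155 and 138 ± 14.4, a fall of 9.78-fold (log2 change -3.29, SE 0.12, 95% interval -3.57 to -3.01, adjusted p = 1.0e-06). Between Control_8 and Null_61 alone the log2 change was -3.55, and among the other 4 arrays it was -3.16 (adjusted p = 2.7e-06). A second probe set, 1446013_at, did not differ between the groups, at 136 ± 17.5 and 138 ± 19.9 (log2 change 0.02, adjusted p = 0.961), and the mean of both probe sets changed by -1.64.

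The other 7 Slc38a members did not pass. Slc38a1 and Slc38a2, which are among the system A carriers of small neutral amino acids, lie next to each other in the genome. Controls first, Slc38a1 read 254 ± 40.3 and 261 ± 42.4 (log2 change 0.03). Slc38a2 read 785 ± 94.3 and 857 ± 18.4 (log2 change 0.13, 95% interval -0.14 to 0.39). Slc38a5, a second glutamine carrier of the SNAT3 type that is known from erythroid and other dividing cells, read 289, 363 and 291 in the control livers and 362, 477 and 408 in the null livers (log2 change 0.37, adjusted p = 0.182). Its groups overlap at Control_1192 and Null_61. Slc38a7 and Slc38a9, of the lysosome, the latter a sensor of arginine for the kinase mTORC1, changed by -0.13 and 0.26, with adjusted p = 0.569 and 0.302. Slc38a10 read 602, 599 and 633 against 490, 406 and 464, and so lay lower in every null array (log2 change -0.41, adjusted p = 0.0729). It fell with array weights (adjusted p = 0.0207), with the title-number run as a term (0.0371) or without Null_61 (0.0365). Its 7 probe sets did not move alike, with log2 changes from -0.52 to 0.15 and 2 of them above 0.

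Slc1a genes carry glutamate or, in Slc1a4 and Slc1a5, neutral amino acids. Slc1a5, the main carrier for glutamine exchange in dividing cells, read 553 ± 80.1 and 616 ± 52.2 (log2 change 0.15, 95% interval -0.15 to 0.45). Slc1a4, which exchanges alanine, serine and cysteine, read 423, 232 and 282 in the control livers and 257, 148 and 160 in the null livers, and its groups overlap through Null_61 (log2 change -0.64, adjusted p = 0.168). It fell when the run of title numbers was a term (adjusted p = 0.00546), among the 4 arrays other than Control_8 and Null_61 (adjusted p = 0.0302) or without Null_61 (adjusted p = 0.0403). All 3 of its probe sets had negative changes. Slc1a1, Slc1a6 and Slc1a7 were dim, with every mean below 99.5. Slc1a3, the glial glutamate carrier, had 6 probe sets, all dim. The one that represents the gene changed by 0.05, while 1426341_at read 73.5, 26.5 and 100 in the control livers and 17.7, -6.83 and -18.9 in the null livers (log2 change -1.33, adjusted p = 0.0355), and this call was lost without Control_8 (adjusted p = 0.123), Control_1193 (0.125), Null_1191 (0.129) or Null_1195 (0.115).

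**Figure D3:**
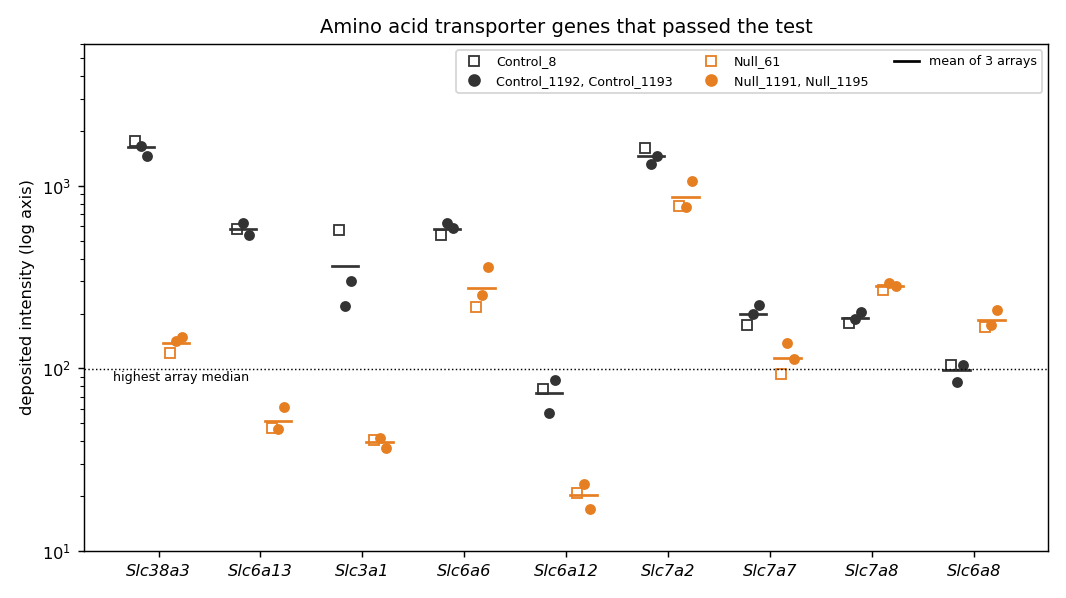
Deposited intensity (log axis) on each array for the 9 transporter genes that passed, with controls in dark grey and nulls in orange, and a bar at the mean of 3 arrays. Squares mark Control_8 and Null_61, circles the other arrays, and the dotted line is the highest array median, 99.5. Slc38a3, Slc6a13 and Slc3a1 are the farthest apart, and no gene's groups overlap.

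Slc3a1 and Slc3a2 are the heavy chains. Slc3a1, called rBAT, pairs with the light chain Slc7a9 to take up cystine and basic amino acids, and loss of either in kidney gives cystinuria. Slc3a1 read 576, 221 and 302 in Control_8, Control_1192 and Control_1193 and 40.7, 41.7 and 36.6 in the null livers. All 3 null arrays lay below the highest array median, and the controls spread widely. The means were 366 ± 186 and 39.7 ± 2.68 (log2 change -2.38, SE 0.28, adjusted p = 0.00092, no fold given). The change was -3.06 between Control_8 and Null_61 and -2.03 among the other 4 arrays (adjusted p = 0.000133). Its printed promoter window is the one with the HNF4-type motif. Lrpprc, 2 protein-coding genes away, also fell (log2 change -1.04, adjusted p = 0.000329), as did 7.85% of all genes. The 2 nearest neighbours measured, Ppm1b and Prepl, did not pass. Within 2 places of other called members, Gnai2 rose by Slc38a3 (0.45), and Mtus1 by Slc7a2 (-0.98) and Mmp14 by Slc7a7 (-0.74) fell. Shared control of neighbours was not tested.

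Its partner light chain Slc7a9 read 113 ± 9.66 and 139 ± 8.35, higher in each null array, without passing (log2 change 0.24, 95% interval -0.03 to 0.51, adjusted p = 0.288). Slc3a2, the other heavy chain, read 664, 738 and 617 in the control livers and 975, 793 and 722 in the null livers (log2 change 0.28, 95% interval -0.03 to 0.60, adjusted p = 0.284). Its groups overlap at Control_1192 and Null_1195. Its light chains went different ways. Slc7a8, or LAT2, which exchanges small and large neutral amino acids, rose, from 177, 187 and 205 to 270, 293 and 282. Its 6 values do not overlap, and the means of 190 ± 14.4 and 282 ± 11.3 differ 1.42-fold (log2 change 0.50, SE 0.11, adjusted p = 0.0327). The call of this small rise was sensitive to single arrays, although its log2 change stayed between 0.46 and 0.55 with 1 array left out. The call was lost without Control_8 (adjusted p = 0.126), Control_1192 (0.13), Control_1193 (0.0748), Null_1191 (0.114) or Null_1195 (0.0826). It was lost too among the 4 arrays other than Control_8 and Null_61 (log2 change 0.49, adjusted p = 0.0537). With embryo sex added to the model the call was also lost (adjusted p = 0.0813), at a log2 change of 0.51. Of the embryos, 2 of the 3 nulls but 1 of the 3 controls were female.

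Slc7a7, the light chain that exports basic amino acids and whose loss gives lysinuric protein intolerance, read 174, 199 and 224 in the control livers and 93.1, 137 and 112 in the null livers, with no overlap. It fell 1.59-fold, from 199 ± 24.9 to 114 ± 22.1 (log2 change -0.67, SE 0.15, adjusted p = 0.0314). The other probe set, 1417392_a_at, did not move, at 139 ± 23.5 and 142 ± 32.9, and the mean of both gave -0.33 (adjusted p = 0.138). The call was lost without Control_1192 (adjusted p = 0.122), Control_1193 (0.125) or Null_1195 (0.088), and when embryo sex was added to the model (log2 change -0.68, adjusted p = 0.0728). Its change was -0.72 between Control_8 and Null_61 and -0.64 among the other 4 arrays (adjusted p = 0.0294). Slc7a7 is also known from macrophages, and 3 of 10 macrophage markers rose in the null livers (1.56% of all genes rose), calls that were each lost without Control_1192. Slc7a5, the light chain for large neutral amino acids, read 327, 545 and 459 against 492, 466 and 783 (log2 change 0.36, adjusted p = 0.416), Slc7a6 changed by -0.19, and Slc7a10 and Slc7a11 by 0.09 and -0.19 at dim signals. None of these passed.

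Slc7a1, Slc7a2 and Slc7a3 carry cationic amino acids such as arginine and lysine. Slc7a2, the form found in liver, read 1613, 1317 and 1457 in the control livers and 772, 769 and 1071 in the null livers. No null array reached the lowest control. It fell 1.67-fold, from 1462 ± 148 to 871 ± 174 (log2 change -0.74, SE 0.15, adjusted p = 0.0201). That call was lost without Control_8 (adjusted p = 0.089), Control_1192 (0.0534), Control_1193 (0.0805) or Null_1191 (0.0881), and after quantile normalization (0.0699). The change was -1.03 between Control_8 and Null_61 and -0.59 among the other 4 arrays (adjusted p = 0.0622). Of its other 3 probe sets, 1422648_at read 181 ± 4.92 and 64.9 ± 5.34 (log2 change -1.14, adjusted p = 0.000329), and kept its call without any single array. Another, 1450703_at, passed too (log2 change -0.51, adjusted p = 0.035), a call lost without any array except Null_61 (adjusted p from 0.086 to 0.129). The last, 1426008_a_at, did not pass (-0.37, adjusted p = 0.129), and all 4 probe sets were lower in every null array. Slc7a1, the widely expressed form, read 501 ± 7.10 and 527 ± 70.3 (log2 change 0.06, 95% interval -0.23 to 0.35), and Slc7a3 was dim.

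**Figure D4:**
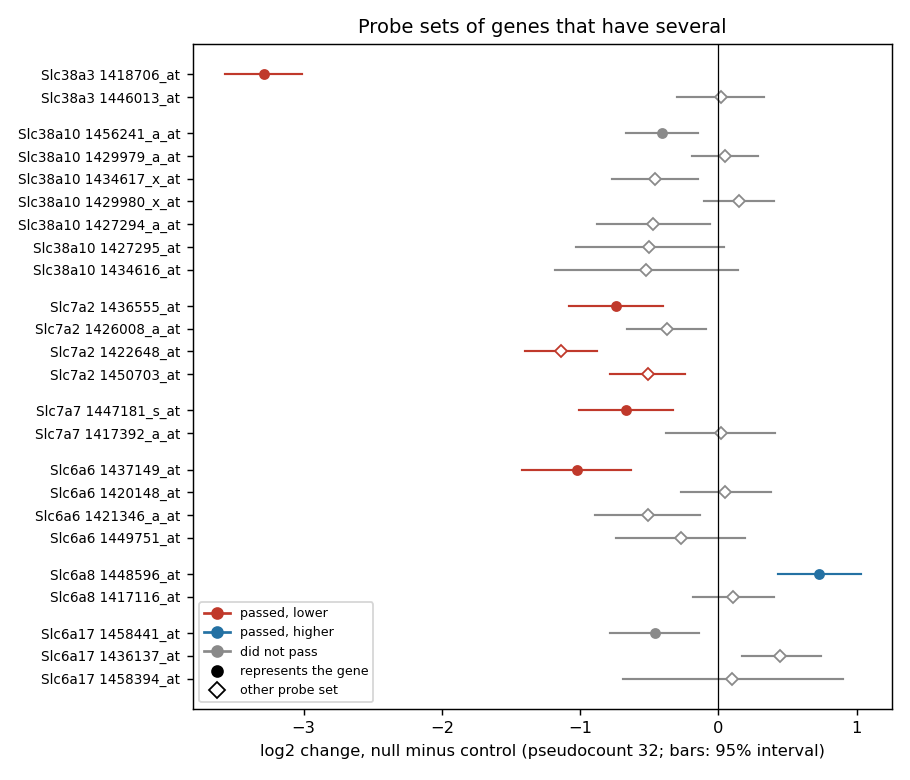
Log2 change (null minus control, pseudocount 32) with 95% intervals of every probe set of 7 genes with several, filled circles for the set that represents the gene and open diamonds for the others. The probe sets of Slc7a2 lie on one side of 0, while those of Slc38a3, Slc7a7, Slc6a6 and Slc6a8 include one near 0 and those of Slc6a17 lie on both sides.

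Slc6a carriers use sodium and chloride and move GABA, taurine, betaine, creatine, glycine, proline, neutral amino acids or monoamines. Of 20 genes, 3 fell and 1 rose, with a median log2 change of -0.03. Slc6a13, or GAT2, a carrier of GABA and taurine in liver and kidney, read 580, 625 and 538 in the control livers and 46.9, 46.3 and 61.6 in the null livers. Each null value lay below the highest array median. The means were 581 ± 43.7 and 51.6 ± 8.69 (log2 change -2.88, SE 0.13, adjusted p = 2.5e-06), and the change was -2.95 between Control_8 and Null_61 and -2.84 among the other 4 (adjusted p = 1.1e-05). Slc6a12, the betaine and GABA carrier, is the neighbour of Slc6a13 in the genome. It was dim in both groups, at 77.5, 56.9 and 86.5 in the control livers and 20.8, 23.2 and 16.9 in the null livers, and it fell (log2 change -1.01, SE 0.15, adjusted p = 0.00407), with changes of -1.05 between Control_8 and Null_61 and -0.98 among the other 4 (adjusted p = 0.0157). The protein-coding genes on the outer sides of the pair, Usp18 and Iqsec3, changed by 0.29 each and did not pass. A2m, past Iqsec3, fell by 5.20 on the log2 scale (adjusted p = 1.1e-06).

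Slc6a6, the taurine carrier, read 540, 623 and 589 in the control livers and 216, 252 and 361 in the null livers. No null value reached 540. It fell 2.03-fold, from 584 ± 41.7 to 276 ± 75.5 (log2 change -1.02, SE 0.17, adjusted p = 0.0077), a call lost without Control_1192 (adjusted p = 0.0511). The change was -1.21 between Control_8 and Null_61 and -0.93 among the other 4 (adjusted p = 0.0108). Its other 3 probe sets changed by 0.05, -0.51 and -0.27 and did not pass, and the mean of all 4 changed by -0.44.

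Slc6a8, the creatine carrier, rose. Its probe set 1448596_at read 105, 84.2 and 104 in the control livers and 169, 173 and 208 in the null livers, all above the controls. The means were 98.0 ± 12.0 and 183 ± 21.7 (log2 change 0.73, SE 0.13, adjusted p = 0.0112), a call lost without Control_1192 (adjusted p = 0.0646). Its change was 0.55 between Control_8 and Null_61 and 0.82 among the other 4 (adjusted p = 0.0125). The other probe set, 1417116_at, read 122 ± 18.1 and 134 ± 8.80 (log2 change 0.11, adjusted p = 0.671), and the mean of both changed by 0.42.

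The other Slc6a genes did not pass. Slc6a9, a glycine carrier known from erythroid cells and glia, read 465, 573 and 457 against 721, 574 and 625, with Null_1191 just above Control_1192 (log2 change 0.34, adjusted p = 0.19), and it rose after quantile normalization (log2 change 0.53, adjusted p = 0.0376). Slc6a11, a GABA carrier, read 678 ± 67.9 and 875 ± 223 (log2 change 0.33, adjusted p = 0.317). Its other probe set, 1433989_at, was dim, at 38.7 ± 5.30 and 43.7 ± 5.84 (log2 change 0.10, adjusted p = 0.723). Slc6a17, a vesicular carrier of neutral amino acids in neurons, had probe sets of opposite direction: 1458441_at read 248 ± 41.6 and 171 ± 9.13 (log2 change -0.46, adjusted p = 0.0965), and 1436137_at read 90.0 ± 5.81 and 135 ± 17.9 (0.45, adjusted p = 0.0725). The first of these fell with array weights or with the title-number run as a term (adjusted p = 0.0415 in each) and among the 4 arrays other than Control_8 and Null_61 (log2 change -0.60, adjusted p = 0.0277), while the mean of its 3 probe sets changed by 0.03. Slc6a4, the serotonin carrier that platelets and neurons use, read 73.9, 161 and 139 in the control livers and 38.5, 62.8 and 77.8 in the null livers, and the groups overlap at Control_8 and Null_1195 (log2 change -0.75, adjusted p = 0.119). It fell with the title-number run as a term (adjusted p = 0.00358), within the 4 arrays (adjusted p = 0.01) and without Control_8 (adjusted p = 0.0322). Slc6a4 and, in other families, Slc1a4, Slc38a1, Slc38a5, Slc7a5 and Slc7a9 were chosen for mention after their values were seen, as were other uncalled members given only by a log2 change.

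Slc36a carriers move small amino acids with protons. Slc36a1, Slc36a2 and Slc36a3 lie side by side in the genome, and none passed. Slc36a2, the brightest, read 458, 236 and 445 against 209, 222 and 246 (log2 change -0.63, adjusted p = 0.148). Control_1192 lay among the nulls, and without that array the log2 change was -0.91 (adjusted p = 0.0121). Slc36a1, of the lysosome, changed by -0.28. Slc36a1os, an opposite-strand transcript that is no member, fell at dim signals, from 92.5 ± 13.4 to 36.6 ± 19.9 (log2 change -0.90, adjusted p = 0.046). Slc43a genes did not pass either. Slc43a1, a carrier of branched-chain and other large neutral amino acids, read 755 ± 79.9 and 752 ± 154 (log2 change -0.02, 95% interval -0.38 to 0.34), Slc43a2 changed by -0.01 and Slc43a3 by 0.17.

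Enzymes that make or break down the cargo of these carriers were set beside them, from a list of 32 genes of which 29 were measured. Of these 10 fell and limma called none higher (0 at an unadjusted p under 0.05), at a median log2 change of -0.21. Over all genes, 7.85% fell and 1.56% rose. As with the other lists, the genes were chosen with earlier results of these data known. Gldc, the glycine-cleaving decarboxylase, went from 531 ± 20.0 to 21.3 ± 2.66 (log2 change -3.40, adjusted p = 5.6e-07). Cdo1 and Csad, which make taurine's precursors from cysteine, fell 6.88-fold (log2 change -2.78, adjusted p = 3.4e-06) and 3.13-fold (log2 change -1.64, adjusted p = 0.000143), beside the falls of the taurine carriers Slc6a6 and Slc6a13. Gamt, which completes creatine, fell 2.82-fold (log2 change -1.49, adjusted p = 0.000188), beside the rise of the creatine carrier Slc6a8, while Gatm, which starts the pathway, changed by 0.25 (adjusted p = 0.332). Arg1, the arginase of the urea cycle, fell 3.28-fold (log2 change -1.71, adjusted p = 0.0029), beside the falls of Slc7a2 and Slc7a7. Glul, the glutamine synthetase, read 2574 ± 244 and 1814 ± 278 without passing (log2 change -0.50, adjusted p = 0.0551), and Glud1, glutamate dehydrogenase, changed by -0.02, beside Slc38a3's fall. Other genes of the same cargo did not pass: Ado and Baat for taurine (log2 changes 0.14 and 0.06) and Arg2 and Oat for arginine (0.27 and -0.18). The glycine carrier Slc6a9 (0.34), beside Gldc's fall, and the arginine carrier Slc7a1 (0.06) did not pass either. Gamt, Gatm, Arg1, Arg2, Oat, Ado, Baat, Glul and Glud1 and the pairing of enzymes with carriers were chosen after their values were seen.

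**Figure D5:**
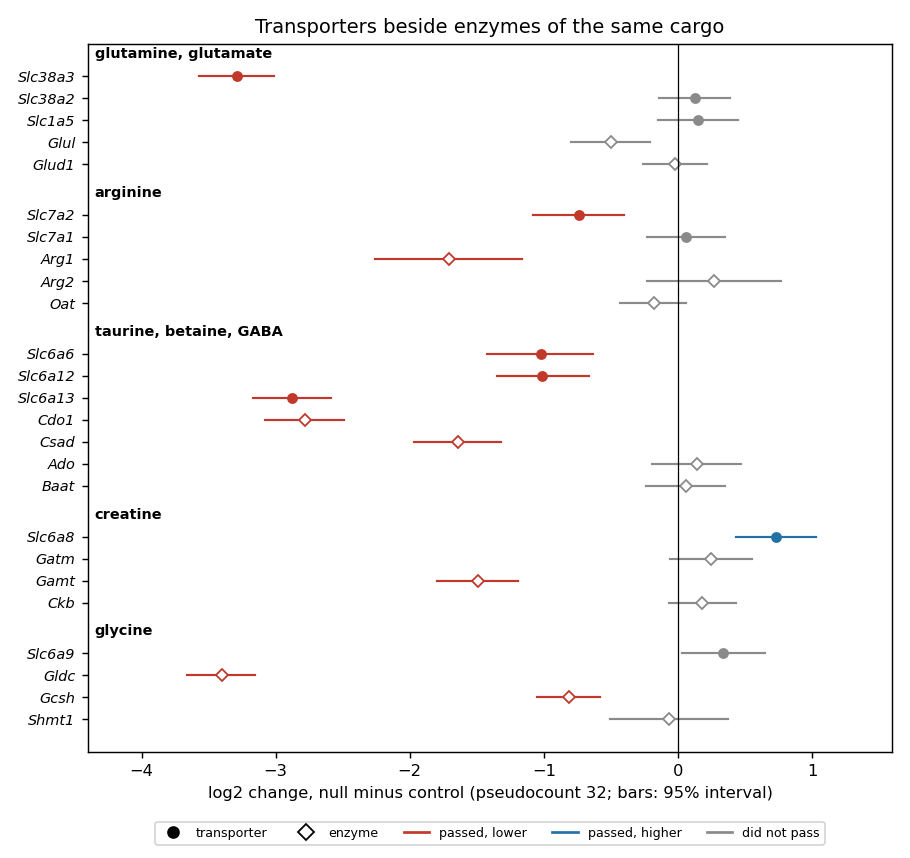
Log2 change (null minus control, pseudocount 32) with 95% intervals for transporters (filled circles) and enzymes of the same cargo (open diamonds), grouped by cargo. Red passed lower, blue passed higher and grey did not pass. In the creatine group Slc6a8 lies above 0 and Gamt below it.

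In the list of other amino acid and peptide carriers, 4 of 24 measured genes fell and limma called none higher (3 at an unadjusted p under 0.05), at a median log2 change of -0.01. The shares over all genes were 7.85% lower and 1.56% higher. The falls were the mitochondrial carriers Slc25a13 (aspartate and glutamate, from 1328 ± 48.5 to 320 ± 57.4, 3.89-fold, adjusted p = 3.9e-05), Slc25a15 (ornithine, log2 change -0.75, adjusted p = 0.00369) and Slc25a29 (basic amino acids, log2 change -0.76, adjusted p = 0.00603), and Slc15a4, a peptide and histidine carrier of the endolysosome (log2 change -0.73, adjusted p = 0.0121). The call of Slc15a4 was lost without Control_8 (adjusted p = 0.0517) or Control_1192 (0.0593).

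The amino acid response driven by the transcription factor ATF4 switches on several of these transporters when amino acids are short. Of 33 measured regulators and targets of it, 5 fell and 1 rose, against 7.85% and 1.56% of all genes, at a median log2 change of -0.01. Cth, which makes cysteine, fell 6.09-fold (log2 change -2.61, adjusted p = 3.8e-05), Atf5 fell 4.14-fold (log2 change -2.05, adjusted p = 0.000346) and Got1 fell 2.53-fold (log2 change -1.34, adjusted p = 0.000122). Mthfd2, a mitochondrial folate enzyme, rose 1.81-fold (log2 change 0.85, adjusted p = 0.0089). Cebpg and Psat1 fell (log2 changes -0.60 and -0.62), and both calls were lost without any 1 control array or Null_1191, with adjusted p from 0.058 to 0.124. Atf4 itself read 968 ± 112 and 1618 ± 505 without passing (log2 change 0.68, adjusted p = 0.096), and Asns, a standard target, changed by 0.11 (adjusted p = 0.621). Slc15a4, Cebpg, Psat1, Atf4 and Asns were chosen for mention after their values were seen. Of 30 measured genes of amino acid sensing by mTORC1, limma called none, against 9.40% of all genes. An unadjusted p under 0.05 was found for 4 of them, and for 24.3% of all genes.

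Some markers of other cells of the fetal liver differed between the groups, and their part in the transporters' changes was not tested. Over all genes, 7.85% fell, 1.56% rose and 24.3% had an unadjusted p under 0.05. Summed over 10 macrophage and Kupffer cell markers, the intensity was 4350 to 5147 in the control livers and 6214 to 10080 in the null livers, and Adgre1, Clec4f and Timd4 rose. Summed over 7 megakaryocyte markers it was 5551 to 7805 against 3911 to 4518, and Itga2b, Gp1bb and Pf4 fell, as values to set beside those of the platelet carrier Slc6a4. Over 9 endothelial markers it was 2180 to 2457 against 1578 to 1903, and Kdr, Tek and Stab2 fell. Apart from Stab2, each of these calls was lost without Control_1192, with adjusted p from 0.0946 to 0.173. At an unadjusted limma p under 0.05, 7 of the 10 macrophage and Kupffer cell markers were higher. All 7 megakaryocyte markers and 5 of the 9 endothelial markers were lower at that limit. Over 8 erythroid markers it was 21215 to 22803 against 24099 to 25829, with no call by limma and 3 markers at an unadjusted p under 0.05, as values to set beside those of Slc6a9 and Slc38a5. Over 9 stellate and mesenchymal markers it was 4465 to 5428 against 5347 to 7972, with a median log2 change of 0.35, no call by limma and 4 markers higher at an unadjusted p under 0.05. Over 8 neutrophil markers it was 25276 to 28607 against 23339 to 29512, over 4 biliary markers 640 to 722 against 619 to 775 and over 5 markers of pancreas and gut 2187 to 2337 against 2033 to 2334. Limma called none of these 17, and Sox9, a biliary marker, alone had an unadjusted p under 0.05 (log2 change -0.48). Over 7 hepatocyte markers it was 75958 to 77596 against 49925 to 53036. Neuronal markers, which bear on the carriers known from brain, summed to 506 to 610 against 549 to 580 over 6 genes, with none called by limma and 1 at an unadjusted p under 0.05. No marker of these lists was at 0 on all arrays.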

How the data were processed

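Total RNA from 6 fetal livers was labelled with biotin and hybridised to mouse Affymetrix arrays, per the labels' protocols. The authors deposited 1 linear intensity per probe set and array. The summarisation, scaling and software remain not given in the sources used here. Negative values (0.908% to 1.34% of an array) were raised to 0 and analysed as log2(intensity + 32). Array medians differed by at most 0.0877 on this scale, under a tolerance of 0.2, so no further normalization was done. The 64 control probe sets were left out. Of 45037 probe sets, 34945 had 1 platform symbol, 932 several and 9160 none. limma 3.58.1 in R 4.3.3 (lmFit, eBayes with an intensity trend, no covariate, two-sided, Benjamini-Hochberg over all probe sets) compared 3 null with 3 control arrays, and the fit was tested on simulated data. The number of arrays limits the precision, and whether livers shared litters is unknown, so p-values reflect variation among these arrays, which may be partly technical. Members and lists were chosen with earlier results of these data known. The naming rule took all called members, those with another probe set called, in each family the brightest member not called and any with an unadjusted p under 0.05 and no overlap of groups, and from each list up to 3 called genes with the smallest adjusted p and 1 of opposite direction. The neighbouring genes, Slc36a1os and the single cell type markers lie outside this rule and were named with their values known. Other genes named with values beyond it are marked in the text as chosen after their values were seen. Alternatives were quantile normalization, centred medians, pseudocounts of 1 and 100, a brightness filter, no trend, array weights, terms for title-number run and embryo sex, 4 arrays alone, the mean of a gene's probe sets, single probe sets, a 2-fold minimum, and each array left out. With 3 against 3 arrays an exact permutation p would be at least 0.1, so none was run.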

Additional observations from a re-analysis of the deposited data

How the results depend on the processing

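No paired analysis was possible because the title numbers of the control and null arrays share none. The falls of Slc38a3, Slc3a1, Slc6a13 and Slc6a12 kept their direction and call in every alternative that tested them (Slc6a12 was too dim for the brightness filter). The count of transporter genes that fell, 7, was 11 with the title-number run as a term and ranged from 5 to 9 with 1 array left out. The count that rose, 2, was 1 with embryo sex as a term, 1 in the 4 arrays other than Control_8 and Null_61, 0 when a change of at least 2-fold was asked, and 0 to 2 with 1 array left out. It was 0 without Control_1192, where limma gave 4 higher member genes at an unadjusted p under 0.05, and no member's rise reached 2-fold. Over all probe sets, 3159 passed, against 5045 with array weights, 5554 with the run as a term and 1745 to 4696 with 1 array left out. The cause of these shifts was not tested. None of the 9 called genes changed sign under the alternatives. Of the 10 uncalled members followed in the same way, 3 changed sign with no call: Slc43a1, -0.02, was 0.20 after quantile normalization, 0.02 with embryo sex as a term and -0.16 to 0.12 with 1 array left out; Slc7a1, 0.06, was -0.04 as the mean of its probe sets and -0.00 to 0.17 with 1 array left out; and Slc6a17, -0.46, was 0.03 when its probe sets were averaged. All remaining members were followed only through the counts. Dim signals limit the size of change that Slc6a12, Slc6a13 and Slc3a1 can show: with a pseudocount of 1 or 100 the log2 changes ran from -1.80 to -0.53, -3.48 to -2.17 and -3.06 to -1.67.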
